A study of Bos taurus with 45 samples.

Results

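Genes of the motile cilium were followed in bovine endometrium and in the bovine conceptus on Day 16, after 12 h of culture together or apart. They were chosen by symbol: every gene named CFAP, DNAH, DNAI, DRC or RSPH with a number, SPAG1, SPAG6, SPAG16, SPAG17 and FOXJ1. The rule found 65 of the 27270 genes counted in endometrium and 52 of the 16149 genes counted in conceptus tissue. Together these make 71 symbols, 46 of them in both tissues. The tissues were matched by symbol alone. The rule could not find the 6635 endometrial and 2031 conceptus genes without a symbol, nor a gene listed under another name. The choice was made with earlier results of these libraries in view, among them how the genes differ between conceptuses, between explants and between cultures, so those differences are given as a description.

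All tissue came from estrus synchronised Angus-Holstein heifers. Intercaruncular endometrium of cyclic heifers, which were not bred, was cultured with sections of in vivo derived (IVD) conceptuses (Endo-IVD Conc, n = 15 libraries of 11 uteri) or alone (Endo, n = 13 libraries of 13 uteri). Conceptus sections, from heifers inseminated with semen of a single Angus bull, were cultured on that endometrium (Endo-IVD Conc conceptus, n = 9 libraries of 7 conceptuses) or alone (IVD Conc, n = 8 conceptuses). The groups share the medium, RPMI with dialyzed fetal bovine serum, and animals: 11 uteri and 7 conceptuses gave tissue to both cultures, 4 uteri gave 2 co-cultured explants, each with another conceptus, and 2 conceptuses gave 2 co-cultured sections. A section is a small piece of an elongated conceptus, and the part of the conceptus it was cut from is not in the labels.

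A motile cilium is built on a ring of doublet microtubules around a central pair. Outer and inner dynein arms walk along the neighbouring doublet and bend the cilium, while the nexin-dynein regulatory complex and the radial spokes tie the parts together and time the stroke. In the endometrium, motile cilia sit in tufts on the multiciliated cells of the luminal and glandular epithelium, whose gene program is switched on by FOXJ1. The trophoblast and the hypoblast of the conceptus are not known for motile tufts. A primary cilium lacks dynein arms and a central pair, and whether cells of these sections carry one was not examined.

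Reads were counted per gene, and levels are given as CPM, a gene's share of its library's counts after scaling by TMM, edgeR's trimmed mean of M-values. Library totals, in M counts (M for mega), were 48.67 to 63.97 M in Endo-IVD Conc endometrium, 44.21 to 61.5 M in Endo, 58.58 to 92.01 M in Endo-IVD Conc conceptus and 65.49 to 104.44 M in IVD Conc. The shallowest library thus gives about 44.21 counts for each CPM before scaling. Levels were not compared between the 2 tissues, which were aligned by different tools, nor between genes, whose transcripts differ in length.

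The set was broadly present in endometrium and only in part in the conceptus, each taken beside the other genes counted in that tissue. These backgrounds are unlike, since 3634 genes counted in endometrium had no reads in any library and 0 of those counted in conceptus tissue. In endometrium, 41 of the 65 genes stayed at 1 CPM or more in every explant (63.1%, against 44.1% of all other genes counted) and 3 never reached it, CFAP97D1, DNAH14 and RSPH6A. In conceptus tissue, 11 of the 52 genes stayed at 1 CPM or more in every section (21.2%, against 63.8% of all other genes counted) and 22 never reached it. The conceptus genes under 1 CPM included core parts of dynein arms and spokes: DNAH5 (0.26 CPM at most) and DNAH9 (0.42), heavy chains of the outer arm, DNAH1 (0.17), a heavy chain of the inner arm, and RSPH1 (0.24), a spoke head protein. By role, 3 of 5 outer arm chains, 3 of 6 inner arm chains and 5 of 9 radial spoke genes never reached 1 CPM. Others of these roles did so in every section, among them the outer arm chain DNAH11 (1.37 to 10.3 CPM) and the spoke protein RSPH3 (2.02 to 8.58 CPM). A further 19 symbols of the rule, all counted in endometrium, are not in the conceptus table. They were not analysed there, and a gene listed without that symbol would have been missed. The 6 multiciliated cell markers that the conceptus table holds, of 19 listed, summed to 4.11 to 16.1 CPM in the sections, and 3 of them stayed under 1 CPM in every section. The genes are therefore described in the conceptus as single transcripts and not as a ciliated cell type.

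Across endometrial explants most of the genes moved together. FOXJ1 ranged over 20.6, 45.8 and 101.0 CPM (lowest, median and highest) in Endo-IVD Conc explants and over 3.00, 48.3 and 103.5 CPM in Endo explants. The pattern was alike for an arm protein. DNAH9, the outer arm heavy chain of the distal cilium in human airway, ranged over 32.4, 69.5 and 145 CPM in Endo-IVD Conc explants and over 2.62, 66.1 and 114.9 CPM in Endo explants. DRC1, which the nexin-dynein regulatory complex needs for its assembly, ranged over 26.4, 51.1 and 106.2 CPM in Endo-IVD Conc explants and over 2.43, 52.1 and 126.7 CPM in Endo explants. For each of these genes the 2 cultures overlapped almost throughout.

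Summed over the 65 genes, transcripts of the group made up 549.3, 930.9 and 1770 CPM (lowest, median and highest) in Endo-IVD Conc explants and 281.7, 1000 and 1832 CPM in Endo explants. With the mean of its culture group removed, the log2 level of a gene correlated with the mean of the other members at a median r of 0.92 over the 28 explants. Of the 62 members that passed the filter on low counts, 49 had an r above 0.8 and 6 an r under 0.5. The median r of all 16443 genes to the group was 0.00, and 330 genes outside the members had an r above 0.8. These correlations share libraries, depth and 13 uteri, and describe a common movement only.

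**Figure D1:**
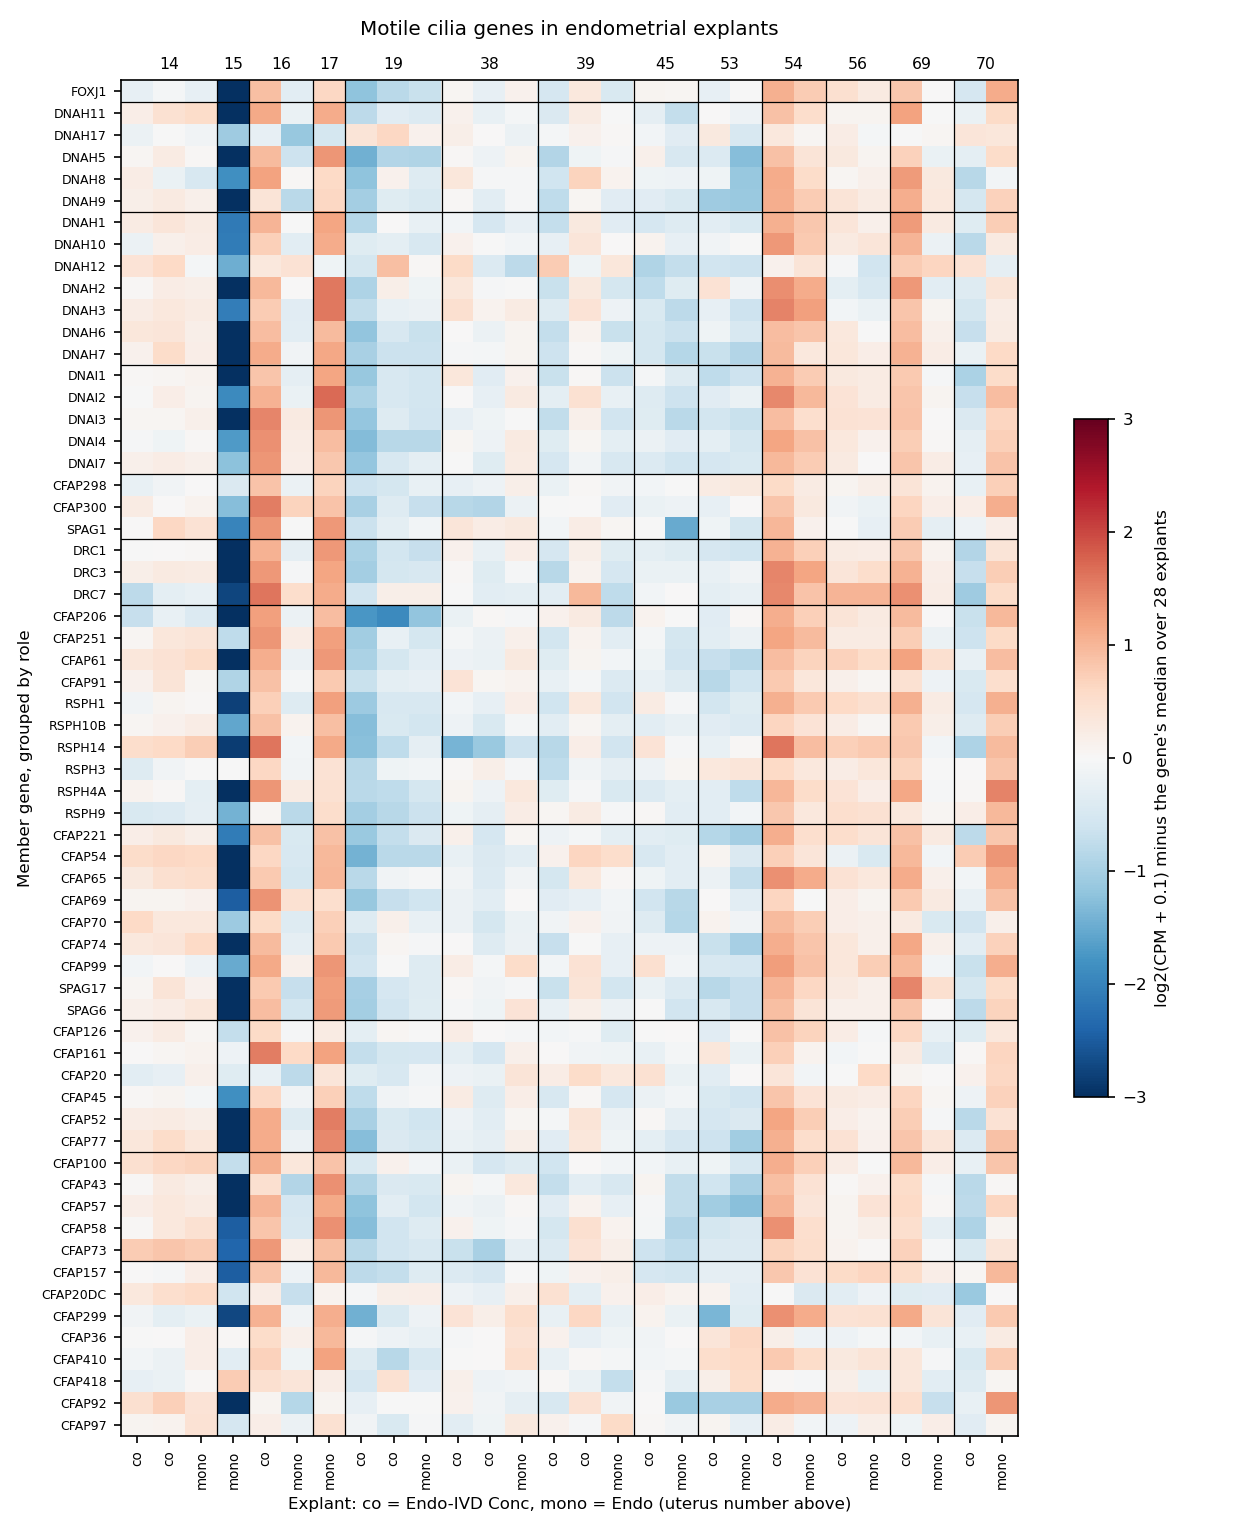
Level of the 62 members that passed the filter (rows, grouped by role) in 28 endometrial explants (columns, by uterus, Endo-IVD Conc left of Endo), as log2(CPM + 0.1) minus the gene's median over the explants. Whole columns are pale, red or blue together, the Endo explant of uterus 15 is blue in nearly all rows, and CFAP418, CFAP20DC and CFAP36 do not closely follow the columns.

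Likeness to the group was high in most roles. Among the dynein intermediate chains, which hold the heavy chains together at the base of the arm, all 5 lay between 0.91 (DNAI7) and 0.97 (DNAI1). The 3 members of the nexin-dynein regulatory complex lay between 0.86 (DRC7) and 0.98 (DRC3), and the 9 proteins of the central pair between 0.81 (CFAP70) and 0.95 (SPAG17). Of the 5 outer arm heavy chains, DNAH17 had an r of 0.24, against 0.85 to 0.97 for the other 4. DNAH17 is known from the outer arm of human sperm tails. Of the 7 inner arm heavy chains, DNAH12 had an r of 0.42, against 0.91 to 0.97 for the other 6. CFAP20, a protein of the inner junction of the doublet that primary cilia also carry, had an r of 0.42, and CFAP36, which binds the small GTPase ARL3, an r of 0.32. CFAP418, which is known from photoreceptors and has no place assigned in the motile axoneme here, had an r of -0.06.

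The SD of log2 CPM over the explants was 0.77 for the median member and 0.48 for the median of all genes that passed the filter, and 51 of the 62 members lay above that median. It was highest for CFAP206 (1.16), of the radial spoke base, CFAP77 (1.15), of the outer junction of the doublet, CFAP65 (1.12), of the central pair, DNAH5 (1.12) and SPAG6 (1.09), a central pair protein. It was lowest for CFAP97 (0.26), CFAP36 (0.29), CFAP126 (0.35), a doublet associated protein, and CFAP418 (0.35). Within Endo-IVD Conc explants the SD of the median member was 0.63, against 0.43 for all genes, and within Endo explants it was 0.88, against 0.48.

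The Endo explant of uterus 15 stood apart. There, 52 of the 62 members were below their level in each of the other 27 explants, and the median of the other explants was 5.75 times its level for the median member. FOXJ1 was 3.00 CPM there, against 29.9 to 103.5 CPM in the other 12 Endo explants. DNAH5 was 0.70 CPM there, against 8.75 to 53.4 CPM in the other Endo explants. The 9 members that stayed within the range of the other explants were CFAP161, CFAP20, CFAP20DC, CFAP251, CFAP298, CFAP36, CFAP410, DNAH17 and RSPH3, named after their values were seen. CFAP418 was above every other explant there, at 6.43 CPM, against 2.26 to 5.57 CPM in the other 27. Without uterus 15 the SD of the median member was 0.60, against 0.47 for all genes, and the median r was 0.89.

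Markers of the epithelium as a whole were not low in that explant. The 15 epithelial markers, all measured, summed to 3608 CPM in uterus 15, against 515.4 to 3643 CPM in the other Endo explants, and 1 of them was under 1 CPM. The 12 stromal markers summed to 24894 CPM there, against 5836 to 26725 CPM. The 14 multiciliated cell markers that are not members, among them CAPSL, averaged 1.27 on the log2(CPM + 0.5) scale in uterus 15, against 2.73 to 4.15 in the other Endo explants, and 5 of the 14 were under 1 CPM there. Their sum, 233.8 CPM, lay within the 168.3 to 600.4 CPM of the other Endo explants. Uterus 15 gave no co-cultured explant. In bulk tissue, fewer multiciliated cells and less of these transcripts per cell cannot be told apart.

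Within a uterus the group level, taken as the median over members of log2 CPM relative to the mean of the gene, differed between cultures in both directions. It was more abundant in Endo-IVD Conc in 7 of the 11 uteri, with a median difference of 0.10 and a range of -1.10 to 1.13 on the log2 scale. FOXJ1 was 89.1 CPM in the Endo-IVD Conc explant of uterus 16, against 38.5 CPM in its Endo explant. FOXJ1 was 84.4 CPM in the Endo-IVD Conc explant of uterus 69, against 48.3 CPM in its Endo explant. FOXJ1 was 33.5 CPM in the Endo-IVD Conc explant of uterus 70, against 103.5 CPM in its Endo explant. The explants of uteri 69 and 70 were cultured with sections of the same conceptus, 71, and moved in opposite directions. Epithelial markers averaged 4.45 on the log2(CPM + 0.5) scale in the Endo explant of uterus 16, the lowest of all explants. They averaged 6.67 in its Endo-IVD Conc explant. In Endo and Endo-IVD Conc they averaged 5.21 and 5.56 in uterus 69, and 6.88 and 6.17 in uterus 70. The part of the epithelium sampled in these differences was not tested.

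Uteri that gave 2 co-cultured explants show how far pieces of 1 uterus differ when each is cultured with another conceptus. Piece and conceptus cannot be told apart in these pairs. FOXJ1 was 40.6 and 45.8 CPM in the Endo-IVD Conc explants of uterus 14, 20.6 and 27.3 CPM in those of uterus 19, 33.9 and 59.7 CPM in those of uterus 39, and 49.7 and 40.0 CPM in those of uterus 38. The group level differed between the 2 explants by 0.06 (uterus 14) to 0.54 (uterus 39) on the log2 scale. The median size of the difference between cultures of 1 uterus was 0.20. Only uteri 16, 69 and 70 differed between cultures by more than 0.54, the largest difference of these few pairs.

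**Figure D2:**
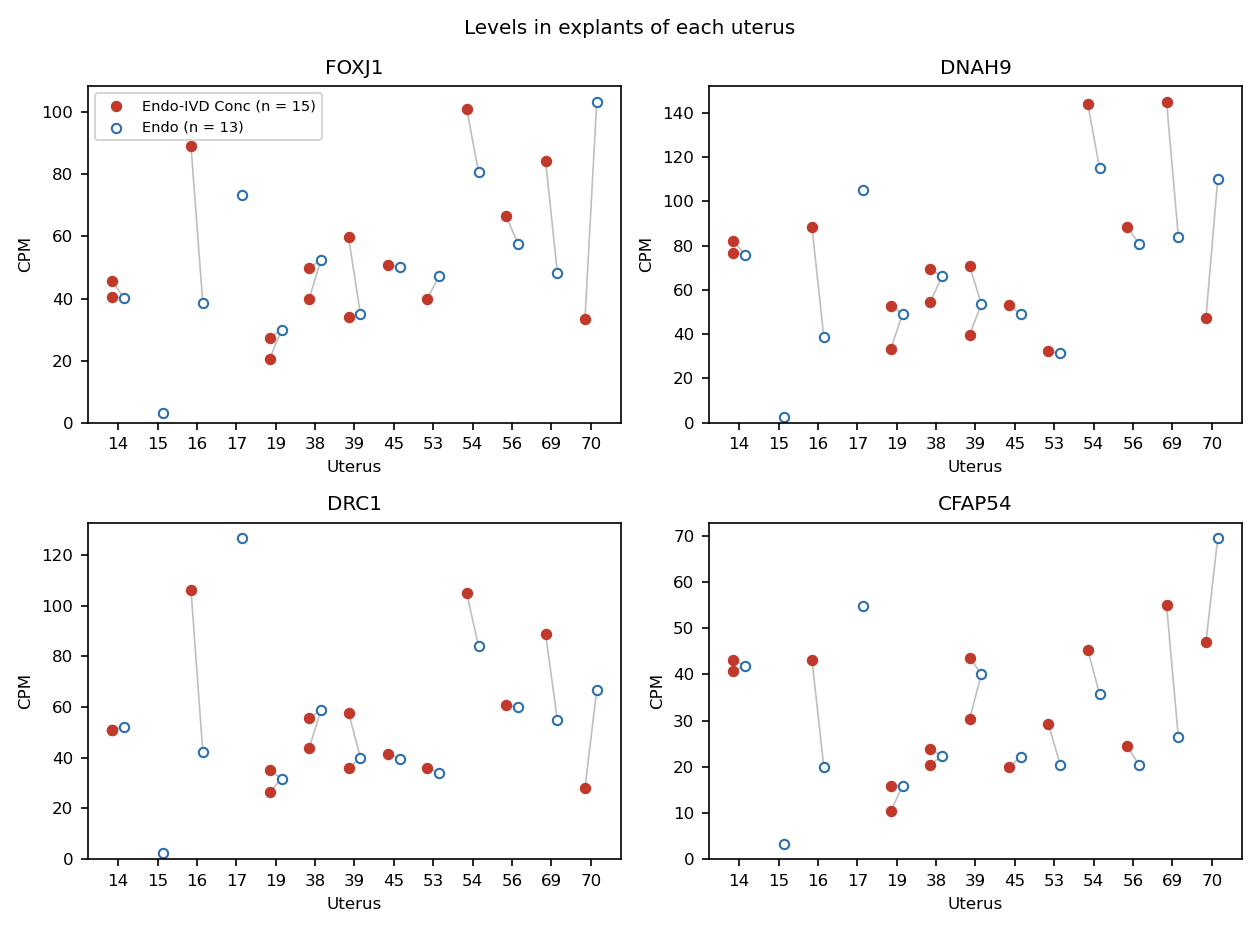
CPM of FOXJ1, DNAH9, DRC1 and CFAP54 (vertical axes) in each explant, by uterus, with Endo-IVD Conc explants (filled, n = 15) left of Endo explants (open, n = 13) and lines joining explants of 1 uterus. Uterus 15 is lowest in all 4 panels, and the lines of uteri 16, 69 and 70 are the steepest for FOXJ1, upwards to Endo-IVD Conc in uteri 16 and 69 and downwards in uterus 70.

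In endometrium no difference between cultures was detected for these genes. With edgeR's quasi-likelihood test, 7.13% of the 16443 genes tested were called at an adjusted p of at most 0.05, 4.98% as more and 2.15% as less abundant in Endo-IVD Conc. Of the 62 members tested, 0 were called in either direction. At an unadjusted p under 0.05 there was 1, against 20.1% of all genes, and DESeq2 also called 0. The log2 fold changes of the members ran from -0.23 to 0.38 with a median of 0.06, against a median of -0.04 for all genes, and their median SE was 0.28. With the uterus as a block the median SE was 0.16, the median log2 fold change was 0.11 and the members called were again 0, while 10.3% of all genes were called. Smooth muscle markers differed between explants, with sums of 476.4 to 9762 CPM in Endo-IVD Conc and 291 to 1749 CPM in Endo, and without uteri 38 and 69, where that sum was highest, the members called were again 0. The rule used this contrast, so nothing further is read from the counts.

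The outer arm chains DNAH8 (log2 fold change 0.38 ± 0.27, SE) and DNAH17 (0.35 ± 0.14), the inner arm chain DNAH12 (0.36 ± 0.21), SPAG1, which helps to assemble dynein arms in the cytoplasm (0.29 ± 0.26), and DRC7 (0.20 ± 0.33) had the highest fold changes. DNAH17 ranged over 5.93, 7.75 and 11.1 CPM (lowest, median and highest) in Endo-IVD Conc explants and over 3.19, 6.58 and 9.07 CPM in Endo explants, and in 9 of 11 uteri its Endo-IVD Conc level was the higher one. The groups overlapped widely for this gene too. The lowest were CFAP410 (-0.23 ± 0.18), a protein of the base of primary cilia, CFAP36 (-0.16 ± 0.11), CFAP97 (-0.16 ± 0.10), CFAP20 (-0.12 ± 0.14) and CFAP298 (-0.11 ± 0.14), a dynein assembly factor. FOXJ1 stood at 0.04 ± 0.29 and CFAP54, of the central pair, at 0.12 ± 0.29. By role, the medians ran from -0.06 for the 8 members without an assigned role to 0.17 for the 5 outer arm heavy chains.

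**Figure D3:**
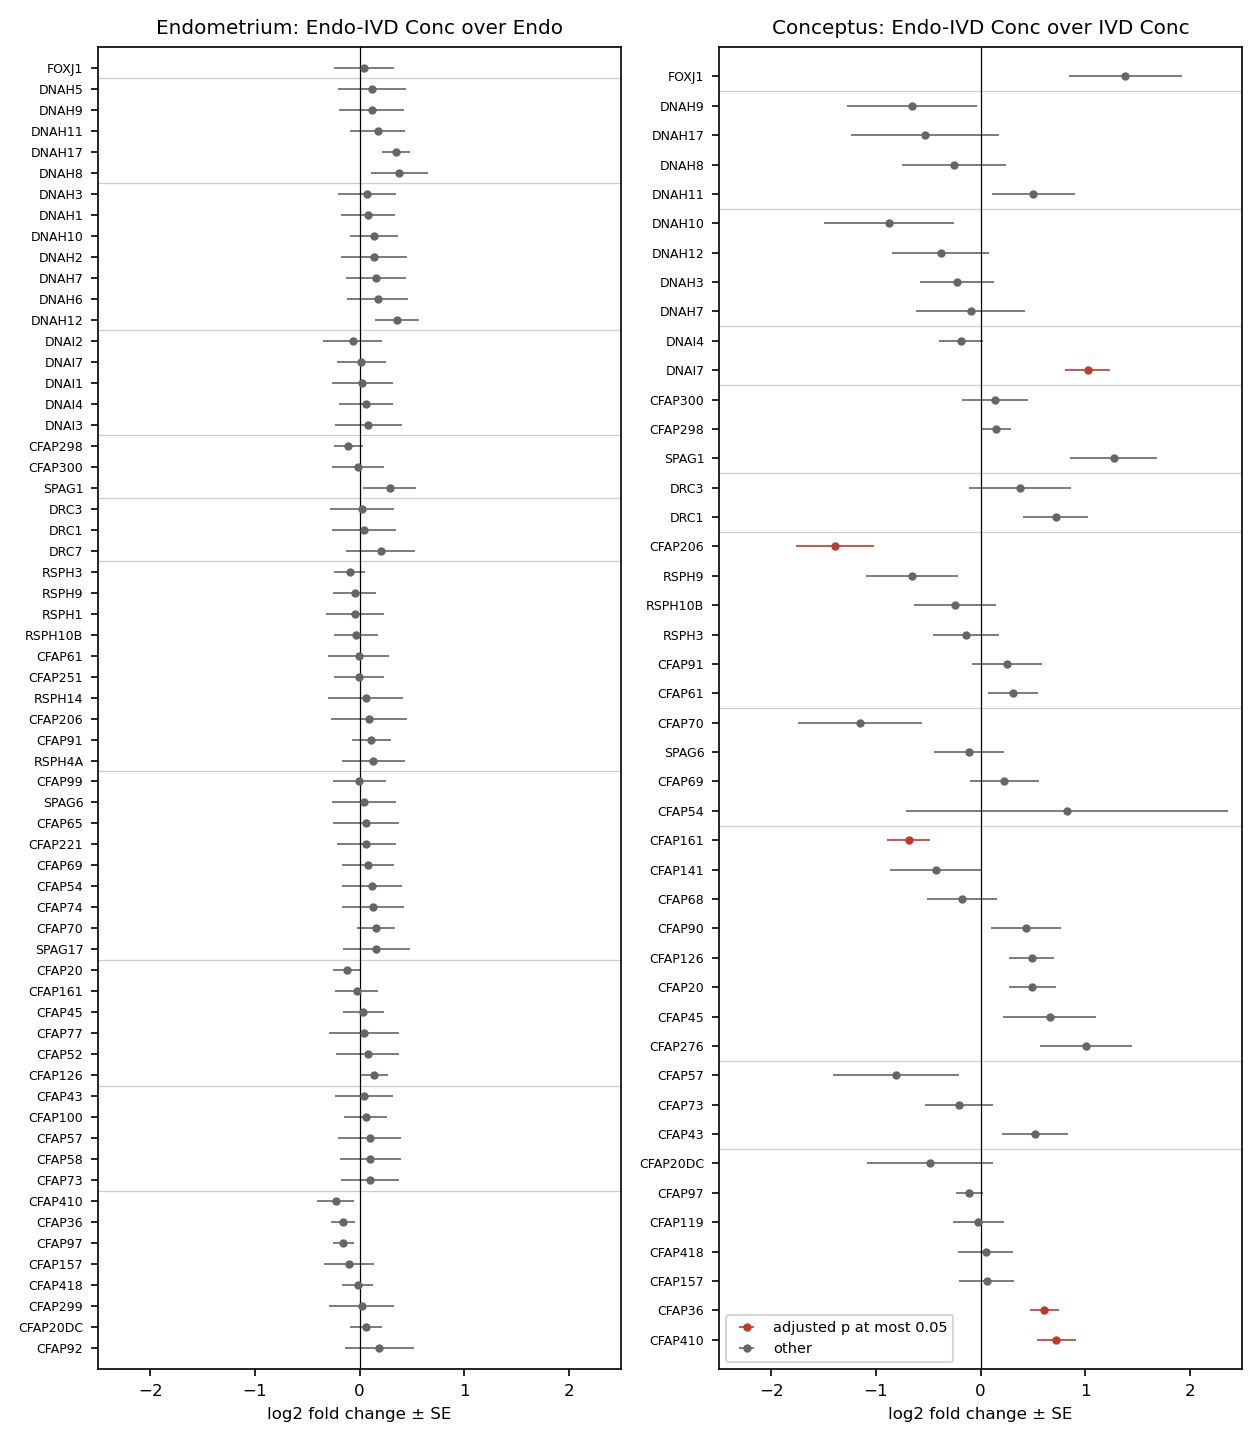
Log2 fold change with its SE (horizontal axes) of each member that passed the filter, by role, for Endo-IVD Conc over Endo in endometrium (left) and for Endo-IVD Conc over IVD Conc in conceptus (right); red marks an adjusted p of at most 0.05. Endometrial values lie between -0.23 and 0.38 with none marked, and conceptus values between -1.39 and 1.38 with 5 marked.

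Other genes of cilia, which the rule did not match, were tested in the same fit. In endometrium 0 were called of 10 genes of dynein docking and axonemal rulers, of 13 dynein assembly factors, of 38 other motile axoneme proteins, of 30 intraflagellar transport genes and of 16 regulators of multiciliogenesis. At an unadjusted p under 0.05 these lists held 0, 0, 0, 4 and 3 genes, against 20.1% of all genes tested. Of the 14 multiciliated cell markers 1 was called (7.14%, against 7.13% of all genes tested), CDHR4, a cadherin-related protein. CDHR4 ranged over 0.26, 0.69 and 2.36 CPM (lowest, median and highest) in Endo-IVD Conc explants and over 0, 0.13 and 0.39 CPM in Endo explants. In 11 of 11 uteri CDHR4 was more abundant in Endo-IVD Conc, with a log2 fold change of 2.37 ± 0.37 (SE) and an adjusted p of 2.8e-05 by edgeR (9.2e-10 to 0.00080 over the alternatives). CDHR4 did not follow the members, with an r of -0.37 to the group, and its level is low.

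Of the 29 genes of the BBSome and the primary cilium 1 was called (3.45%, against 7.13% of all genes tested). This was ARL3, a small GTPase that releases cargo in the cilium, and it fell in endometrium. ARL3 ranged over 17.1, 21.3 and 29.1 CPM (lowest, median and highest) in Endo-IVD Conc explants and over 23.0, 28.6 and 41.8 CPM in Endo explants. Its log2 fold change was -0.35 ± 0.10 (SE), with an adjusted p of 0.021 by edgeR (0.0050 to 0.052 over the alternatives), and 1 of 11 uteri had the higher level in Endo-IVD Conc. The call was lost without the Endo explant of uterus 15, where the adjusted p was 0.052. The medians of the 7 lists lay between -0.13 and 0.08, against -0.04 for all genes.

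These lists followed the members to different degrees. The median r to the group was 0.93 for dynein docking and axonemal rulers, 0.93 for other motile axoneme proteins, 0.93 for multiciliated cell markers and 0.86 for dynein assembly factors. It was 0.40 for intraflagellar transport, which also builds primary cilia, 0.36 for regulators of multiciliogenesis and 0.22 for the BBSome and the primary cilium. The 10 genes outside the rule with the highest r over the 28 explants were CAPSL, DAW1, CCDC40, DNAJB13, ENKUR, TNNI3, NEK5, C5H22orf23, MORN3 and TTLL9, at 0.98. Without uterus 15, CAPSL, DAW1, CCDC40, TNNI3 and NEK5 were again among the first 10, with an r of 0.96 to 0.97.

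In the conceptus the members did not move together. The r of a member to the mean of the others had a median of -0.08 over the 17 sections, 0 of the 44 members that passed the filter had an r above 0.8, and the median r between pairs of members was -0.01. The SD of log2 CPM was 0.66 for the median member, against 0.54 for all genes that passed the filter. The group level ran from -0.21 to 0.19 in Endo-IVD Conc and from -0.12 to 0.05 in IVD Conc on the log2 scale. As a median over members that did not move together, it cannot show how far sections differ. Summed over all members, transcripts made up 156 to 485.9 CPM in Endo-IVD Conc and 148 to 323.8 CPM in IVD Conc. In the section with the highest sum, CFAP54 alone was 312.9 CPM.

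**Figure D4:**
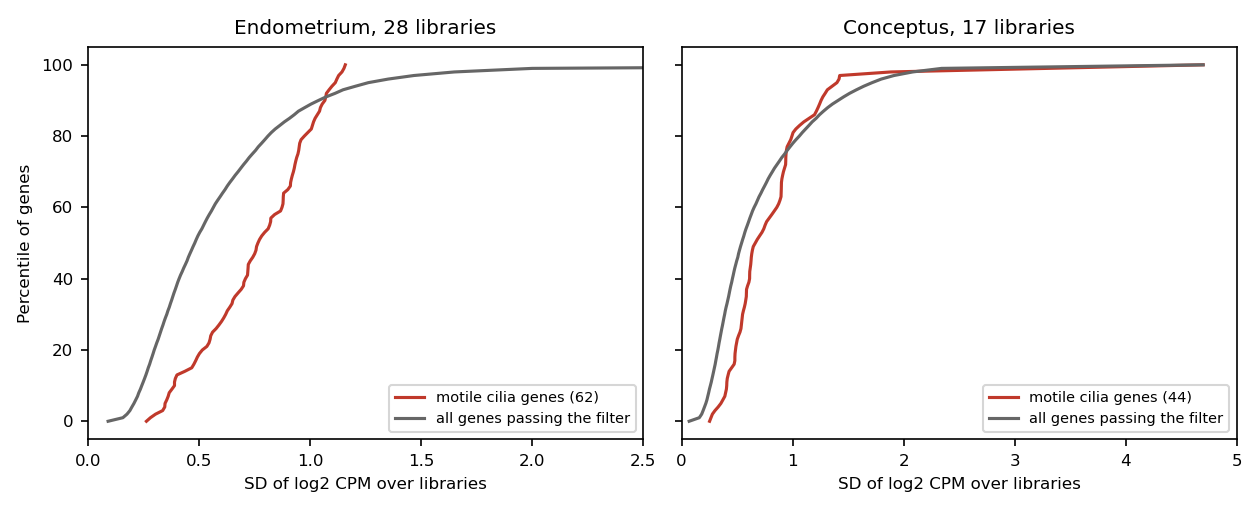
Percentile of genes (vertical axis) against the SD of log2 CPM over libraries (horizontal axis) for the motile cilia genes and for all genes that passed the filter, in 28 endometrial (left) and 17 conceptus libraries (right). At the median the members' curve lies right of that of all genes, at 0.77 against 0.48 in endometrium and 0.66 against 0.54 in conceptus, the curves cross in the upper part, and the right end in conceptus is CFAP54 at 4.70.

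CFAP54 differed most between sections. It encodes a very large protein of the central pair, and of the 14746 genes tested in the conceptus it ranked 1 in SD of log2 CPM (4.70). Sections of conceptus 8 held 138.0 CPM in Endo-IVD Conc and 167.3 CPM in IVD Conc. Sections of conceptus 47 held 192.7 and 180.4 CPM in Endo-IVD Conc, on different uteri, and 88.4 CPM in IVD Conc. Sections of conceptus 71 held 312.9 CPM in Endo-IVD Conc and 150.7 CPM in IVD Conc. All 7 libraries of these 3 conceptuses were above 88 CPM, in either culture, with the co-cultured sections on 4 uteri.

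In the other 5 conceptuses CFAP54 stayed under 8.3 CPM. Conceptus 22 held 8.27 CPM in Endo-IVD Conc and 3.75 CPM in IVD Conc. Conceptus 66 held 1.73 CPM in Endo-IVD Conc and 4.08 CPM in IVD Conc. Conceptus 50 held 0.053 CPM in Endo-IVD Conc and 1.84 CPM in IVD Conc. Conceptus 26 held 0.025 and 0 CPM in Endo-IVD Conc and 0.13 CPM in IVD Conc, and conceptus 5, which has no co-cultured section in these data, 0.83 CPM in IVD Conc. In read counts the range was 20734 (conceptus 71, Endo-IVD Conc) to 0 (conceptus 26, Endo-IVD Conc). No library lay between 8.3 and 88 CPM, and sections of 1 conceptus lay on the same side of that gap in both cultures. The log2 fold change for co-culture was 0.83 ± 1.54 (SE), higher in 3 of 7 conceptuses.

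Summed over lists, other axoneme genes did not separate these sections from the rest. The 29 other motile axoneme proteins that the conceptus table holds summed to 75.9 to 98.7 CPM in the 7 sections of conceptuses 8, 47 and 71 and to 55.9 to 82.0 CPM in the other 10. The 9 genes of dynein docking and axonemal rulers summed to 8.00 to 11.2 CPM in the 7 sections and to 8.63 to 12.9 CPM in the other 10. Such sums can hide single genes. The member CFAP20DC was 0.3622 to 1.306 CPM in the 7 sections and 1.324 to 7.697 CPM in the other 10, narrowly without overlap. FOXJ1 was mostly higher and DNAH10 mostly lower in the 7 sections, and both overlapped. These members were picked after their values were seen, and how many members separate the sections was not counted. In endometrium CFAP54 followed the members with an r of 0.84.

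Hypoblast markers were lower where CFAP54 was high. The sections were split by CFAP54 after its values were seen, conceptuses 8, 47 and 71 against conceptuses 5, 22, 26, 50 and 66. How many of all genes separate these conceptuses was not counted, so the lists are given as a description. The 11 hypoblast markers measured, of 12 listed, summed to 5343 to 14305 CPM in sections of conceptuses 8, 47 and 71 and to 15256 to 45332 CPM in the other 10, with no overlap. The 18 trophoblast markers summed to 53956 to 87499 CPM in the 7 sections and to 11654 to 71273 CPM in the other 10, and overlapped. The 6 embryonic disc markers measured, of 10 listed, summed to 79.7 to 123.3 CPM in the 7 sections and to 48.9 to 328.4 CPM in the other 10, whose range held all 7. The 12 genes listed as markers of endometrial stroma, at 52.8 to 171.9 CPM in the 7 sections and 186.5 to 899.6 CPM in the other 10, did not overlap. Nor did the 8 smooth muscle markers, at 53.2 to 141.6 CPM in the 7 sections and 155.6 to 1167 CPM in the other 10. A list of endometrial genes, kept to look for uterine tissue in the sections, had 8 of 14 genes measured. They summed to 11.6 to 25.6 CPM in the 7 sections and to 24.95 to 162.5 CPM in the other 10, and overlapped. The 6 endothelial markers measured, of 8 listed, summed to 8.54 to 32.1 CPM in the 7 sections and to 19.7 to 84.3 CPM in the other 10. The 6 primitive streak and node markers measured, of 13 listed, summed to 8.94 to 43.4 CPM in the 7 sections and to 21.5 to 93.5 CPM in the other 10. Both lists overlapped. Whether the stromal and muscle markers come from uterine or conceptus cells was not tested, nor was the part of any cell type in the CFAP54 level.

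Other members were high in single conceptuses. DNAH14, a heavy chain of the dynein family that did not pass the filter, was 7.28 CPM in Endo-IVD Conc and 7.54 CPM in IVD Conc sections of conceptus 22. In the other 15 sections DNAH14 was 0 to 0.44 CPM in Endo-IVD Conc and 0.023 to 0.097 CPM in IVD Conc. DNAH17 was 7.22 CPM in Endo-IVD Conc and 17.5 CPM in IVD Conc sections of conceptus 66. In the other conceptuses DNAH17 was 0.32 to 5.58 CPM in Endo-IVD Conc and 0.74 to 3.30 CPM in IVD Conc. Each gene was thus highest in both sections of 1 conceptus.

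CFAP70, grouped here with the central pair, was higher in the mono-cultured sections where CFAP54 was high, but not in all of the co-cultured ones. It was 0.41 CPM in Endo-IVD Conc and 9.79 CPM in IVD Conc sections of conceptus 8. It was 4.30 and 2.76 CPM in Endo-IVD Conc and 5.88 CPM in IVD Conc sections of conceptus 47. It was 3.28 CPM in Endo-IVD Conc and 7.11 CPM in IVD Conc sections of conceptus 71. In the other conceptuses CFAP70 was 0.53 to 1.97 CPM in Endo-IVD Conc and 0.43 to 4.67 CPM in IVD Conc. Its log2 fold change was -1.15 ± 0.59 (SE), and it was lower in co-culture in 7 of 7 conceptuses by their mean log2 level.

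**Figure D5:**
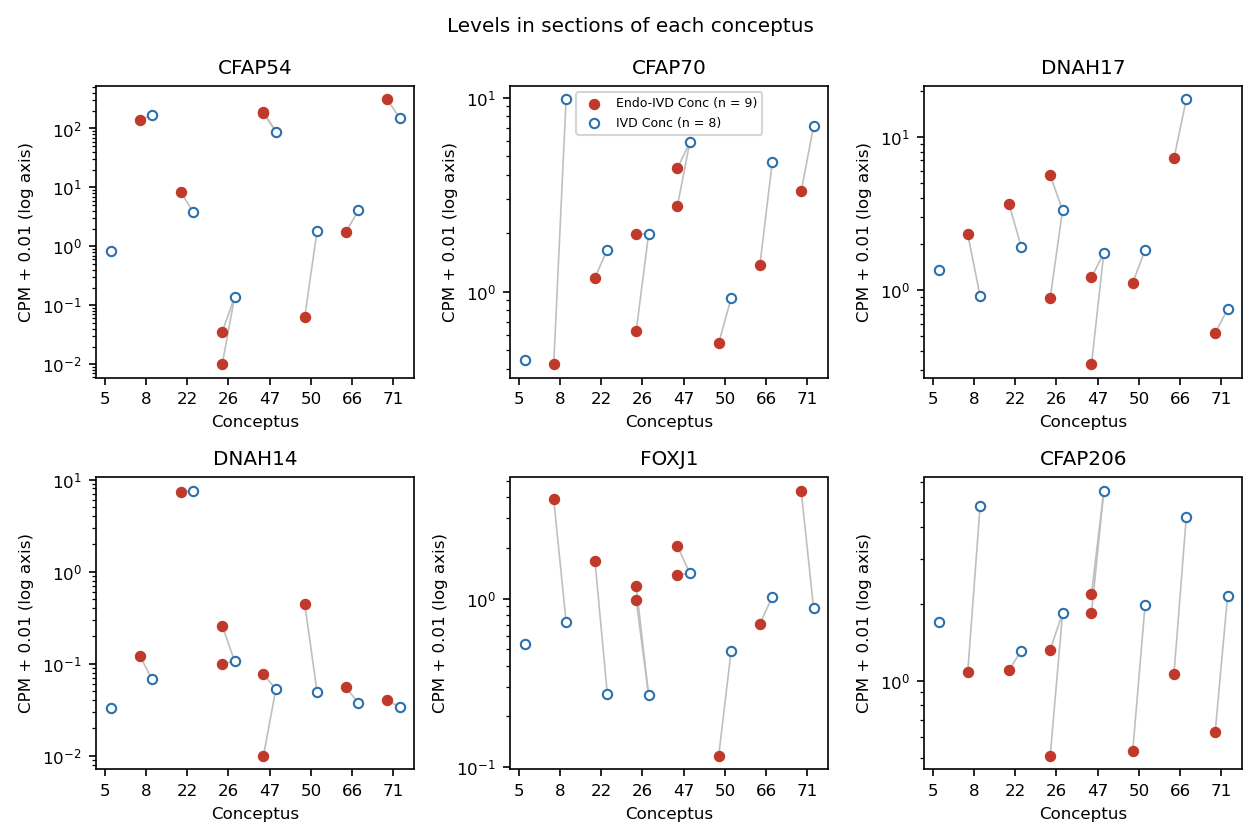
CPM + 0.01 on a log axis (vertical) of 6 members in each section, by conceptus, with Endo-IVD Conc sections (filled, n = 9) left of IVD Conc sections (open, n = 8) and lines joining sections of 1 conceptus. CFAP54 is above 88 CPM in all sections of conceptuses 8, 47 and 71, DNAH14 stands out in conceptus 22 and DNAH17 in conceptus 66, while CFAP206 lies lower in every co-cultured section than in the mono-cultured section of its conceptus.

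Between cultures, 7.24% of the 14746 conceptus genes tested were called by edgeR, 3.59% as more and 3.65% as less abundant in Endo-IVD Conc. Of the 44 members tested, 3 were called more abundant (CFAP36, CFAP410 and DNAI7) and 2 less abundant (CFAP206 and CFAP161). Their log2 fold changes ran from -1.39 to 1.38, 22 above 0 and 22 below, with a median of 0.01, as for all genes (0.01). DESeq2 called 7 of the members and 2178 genes in all, against 1068 genes in all by edgeR. With the conceptus as a block 1 was called more abundant (DNAI7) and 1 less abundant (CFAP206), and 4.33% of all genes were called. The rule used this contrast as well, so the counts are given without a reading.

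The members called were single genes of different roles. DNAI7, an intermediate chain associated protein, ranged over 0.50, 0.84 and 1.16 CPM (lowest, median and highest) in Endo-IVD Conc sections and over 0.33, 0.38 and 0.46 CPM in IVD Conc sections, without overlap (log2 fold change 1.03 ± 0.21, SE). CFAP36 ranged over 19.6, 22.8 and 42.9 CPM in Endo-IVD Conc sections and over 16.0, 16.8 and 19.1 CPM in IVD Conc sections, also without overlap (0.61 ± 0.14). CFAP410 ranged over 7.27, 9.41 and 17.7 CPM in Endo-IVD Conc sections and over 5.38, 6.53 and 7.31 CPM in IVD Conc sections, with a small overlap (0.73 ± 0.18). CFAP36 and CFAP410 were named after their values were seen. All 3 were more abundant in Endo-IVD Conc in 7 of 7 conceptuses. DNAI7 overlaps another gene, IRAG2, and its counts may hold reads of that gene.

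CFAP206 ranged over 0.50, 1.07 and 2.17 CPM in Endo-IVD Conc sections and over 1.30, 2.05 and 5.51 CPM in IVD Conc sections (-1.39 ± 0.37). CFAP161, which lies inside the doublet microtubules, ranged over 1.04, 2.65 and 3.33 CPM in Endo-IVD Conc sections and over 3.10, 3.71 and 5.24 CPM in IVD Conc sections (-0.69 ± 0.20), and its gene overlaps TLNRD1. Both overlapped between cultures and were lower in co-culture in 7 of 7 conceptuses. With each library left out in turn, CFAP36 and DNAI7 were called in 17 of 17 fits, CFAP410 in 13, CFAP206 in 8 and CFAP161 in 2. CFAP410 was not called without the IVD Conc section of conceptus 5, 8 or 50 or the Endo-IVD Conc section of conceptus 26 on uterus 39. CFAP161 was called only without the Endo-IVD Conc section of conceptus 50 or that of conceptus 47 on uterus 54. No member was called less abundant without the IVD Conc section of conceptus 8, 47, 50, 66 or 71, or without the Endo-IVD Conc section of conceptus 8, 66 or 71 or that of conceptus 26 on uterus 39. Only 1 was called less abundant without the IVD Conc section of conceptus 5, 22 or 26 or the Endo-IVD Conc section of conceptus 22, of conceptus 26 on uterus 14 or of conceptus 47 on uterus 19, whereas 5 were called more and 3 less abundant without the Endo-IVD Conc section of conceptus 50.

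FOXJ1 had the highest fold change in the conceptus (1.38 ± 0.54, SE) but was not called, and it was higher in co-culture in 5 of 7 conceptuses. It ranged over 0.11, 1.38 and 4.36 CPM (lowest, median and highest) in Endo-IVD Conc sections and over 0.26, 0.62 and 1.40 CPM in IVD Conc sections, so the groups overlapped. Next came SPAG1 (1.27 ± 0.42), DNAI7, CFAP276, a microtubule inner protein (1.01 ± 0.44), and CFAP54. SPAG1 was 0.080 to 0.94 CPM in Endo-IVD Conc sections and 0.079 to 0.30 CPM in IVD Conc sections. The lowest were CFAP206, CFAP70, DNAH10, an inner arm heavy chain (-0.87 ± 0.62), CFAP57, a tether of an inner arm (-0.81 ± 0.60), and CFAP161. The 4 members above 10 CPM in every section were CFAP97, CFAP298, CFAP20 and CFAP36, of which CFAP97 stood at -0.11 ± 0.13 and CFAP298 at 0.15 ± 0.14.

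Of the other cilia lists in the conceptus, 2 of 29 intraflagellar transport genes (6.90%, against 7.24% of all genes tested) rose and 0 fell. DYNC2LI1, a light intermediate chain of the retrograde motor, averaged 6.89 ± 1.19 CPM in Endo-IVD Conc sections (SD, n = 9) and 4.15 ± 1.01 CPM in IVD Conc sections (SD, n = 8), with a log2 fold change of 0.73 ± 0.17 (SE). Its adjusted p was 0.021 by edgeR (0.00049 to 0.058 over the alternatives), and with the conceptus as a block it was 0.058. IFT52, of the intraflagellar transport B core, averaged 6.29 ± 1.31 CPM in Endo-IVD Conc sections and 3.95 ± 0.46 CPM in IVD Conc sections, with a log2 fold change of 0.67 ± 0.16 and an adjusted p of 0.021 by edgeR (0.00028 to 0.046 over the alternatives). Both genes were higher in 7 of 7 conceptuses.

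Of the 30 genes of the BBSome and the primary cilium 2 were called (6.67%), and of the 14 regulators of multiciliogenesis 1 (7.14%). TCTN1, of the transition zone, rose in the conceptus (0.51 ± 0.13, SE, adjusted p 0.030 by edgeR, 0.0029 to 0.060 over the alternatives) and BBS10, a chaperone that helps to assemble the BBSome, fell (-0.90 ± 0.25, adjusted p 0.038 by edgeR, 0.0033 to 0.070 over the alternatives). Of the regulators, CDK2, a kinase of the cell cycle that multiciliated cells reuse, rose (0.65 ± 0.18, adjusted p 0.039 by edgeR, 0.0099 to 0.075 over the alternatives). With the conceptus as a block the adjusted p was 0.059 for TCTN1 and 0.056 for BBS10, so both calls were lost. TCTN1 was more abundant in Endo-IVD Conc in 6 of 7 conceptuses, CDK2 in 7 of 7 and BBS10 in 0 of 7. With 1 library left out, CDK2 was called in 6, TCTN1 in 10 and BBS10 in 4 of 17 fits. CDK2 was called only without the IVD Conc section of conceptus 47 or an Endo-IVD Conc section of conceptus 22, 26, 50 or 66. BBS10 was called only without the IVD Conc section of conceptus 47 or the Endo-IVD Conc section of conceptus 50, of conceptus 26 on uterus 14 or of conceptus 47 on uterus 19. TCTN1 was not called without the IVD Conc section of conceptus 5, 26, 47, 50, 66 or 71 or the Endo-IVD Conc section of conceptus 26 on uterus 39. Of 7 genes of dynein docking and axonemal rulers, 10 dynein assembly factors, 24 other motile axoneme proteins and 5 multiciliated cell markers, edgeR called 0. These lists held 1, 2, 3 and 1 genes at an unadjusted p under 0.05, against 25.4% of all genes tested.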

How the data were processed

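Poly(A) RNA of 28 endometrial and 17 conceptus libraries was sequenced after stranded library preparation. The deposited values are raw counts per gene, which the authors made with Trimmomatic, STAR (endometrium) or HISAT2 (conceptus) and featureCounts on ARS-UCD1.2, as their processing notes and methods name them. For tool versions, the strand setting and the filter behind the shorter conceptus table, nothing is stated in the paper or labels, so overlapping genes could share counts. In the ARS-UCD2.0 gene table, DNAH17 overlaps PGS1, DNAI7 IRAG2, CFAP161 TLNRD1, TCTN1 HVCN1, DNAH9 ZNF18, DNAH11 CDCA7L, CFAP45 TAGLN2, CFAP276 ELAPOR1, CFAP57 EBNA1BP2 and CFAP73 DDX54, and BBS10, DNAH14, DNAH5, DNAH8, DNAH12 and others overlap genes that have only a locus name. The 1 endometrial row without counts was left out.

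Each tissue was analysed alone with edgeR 4.0.16, running under R 4.3.3 beside limma 3.58.1: filterByExpr (10 counts at the median library size, 15 in total), TMM, robust quasi-likelihood fits of co-culture against mono-culture over all libraries, and Benjamini-Hochberg adjustment over all genes tested (called at 0.05 or less). The fits were also run on simulated data, whose libraries held no animal effect, so that run does not bear on repeated animals. Log2 CPM used a prior count of 2. Animal numbers in the titles pair the cultures: with group means removed, libraries of 1 animal correlated above 0.1 in 15 of 15 endometrial (median 0.35, lowest 0.11) and 9 of 9 conceptus pairs (median 0.50, lowest 0.17). No 2 libraries were alike within sampling noise. Groups hold repeated animals, so p-values without the block treat explants of 1 uterus as separate. No sequencing batch is in the labels.

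Alternatives were a replicate block, DESeq2 1.42.0, RLE scaling, no filter, summed co-cultures with the block, a prior count of 0.5, each library left out, and, chosen after seeing the data, leaving out uterus 15, uteri 38 and 69, or conceptus 5. Members and lists were chosen with earlier results of these data known. Named are FOXJ1, CFAP54, the 2 members per role with the highest mean CPM, the 5 highest and 5 lowest fold changes and the 5 highest SDs per tissue, up to 4 genes per other list with the smallest adjusted p, and the 10 genes most like the members among those with a mean log2 CPM of 0 or more. Further members were named after their values were seen.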

Additional observations from a re-analysis of the deposited data

Results flagged for a closer look

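In conceptus tissue the 25 named members were checked in both groups, 50 groups in all, for a library whose gap to its neighbour was large against the range on the log2 scale. Of these groups 6 were marked. The members were named partly for a large SD, fold change or mean CPM in these same libraries, so the count cannot be set against chance. In IVD Conc sections, DNAH14 was 7.54 CPM in conceptus 22, against 0.097 CPM in the next section, and DNAH17 was 17.5 CPM in conceptus 66, against 3.30 CPM. DNAI4, a dynein intermediate chain, was 0.46 CPM in the IVD Conc section of conceptus 22, against 0.87 CPM in the next lowest. In Endo-IVD Conc sections, RSPH3, a radial spoke protein, was 8.58 CPM in conceptus 50, against 4.18 CPM in the next. The Endo-IVD Conc section of conceptus 47 on uterus 54 was marked for 2 genes, CFAP20 with 62.9 CPM, against 29.9 CPM in the next, and CFAP161 with 1.04 CPM, against 2.15 CPM in the next lowest. Groups of 13 and 15 explants were not checked in this way.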

How the results depend on the processing

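In endometrium 0 members were called under every alternative run, with a range of 0 to 0 over 28 left-out libraries, and 965 to 1328 genes in all. The other cilia lists held 4 calls with the replicate block and 5 with DESeq2, against 2, and 2 to 3 with 1 library left out. In conceptus tissue the members called more and less abundant, 3 and 2, were 1 and 1 with the replicate block, of 643 genes called against 1068. DESeq2 called 2178 genes and 5 members more abundant. Less abundant was 1 member without a filter, with summed co-cultures and the replicate block (2226 genes called), and without conceptus 5 (515 genes called), the last chosen after seeing the data. The other lists, with 5 calls, held 14 with DESeq2, 15 with summed co-cultures and the replicate block, and 2 without conceptus 5. Leaving out 1 conceptus library gave 440 to 1936 genes, 2 to 5 members more and 0 to 3 less abundant, and 2 to 13 list genes. The cause was not tested. Beyond the calls given in the report as lost, the block changed that of no gene named there as called. Conceptus members under 1 CPM rest on few reads, and a small difference in them was not detectable at this depth.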
